A study of Mus musculus with 12 samples.

Results

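The genes described here encode the enzymes that join a polar group to drugs and hormones in the liver, and the enzymes that make the donors of that group. They were UDP-glucuronosyltransferases (symbols starting with Ugt1, Ugt2 or Ugt3), sulfotransferases (Sult), glutathione S-transferases (Gst with a class letter and digit, and Mgst), and Ugdh, Ugp2, Papss1 and Papss2. A gene entered when a probe set that carries its symbol alone had a mean log2 intensity of at least 5 over all arrays, and its brightest such probe set was used. This gave 45 of 17052 tested genes, namely 9 UGT, 13 SULT, 17 cytosolic or kappa-class GST, 2 microsomal GST and 4 cofactor supply genes. Of 48 genes with a probe set of their own, 3 lay under the threshold, namely Sult1c1 just below it and Sult6b2 and Mgst2 with means of 4.21 and 4.30. Sult4a1 and Sult1e1, with means of 5.03 and 5.09, lay just inside. Sult1e1 passed only through its 6 h arrays (mean of the others 4.17), and Sult3a2 and Sult4a1 only through their 2 h arrays (4.87 and 4.93), so a rise at that time is part of how they entered.

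Female BALB/cByJ mice aged 2.5 months gave the liver RNA, which was measured on 12 Affymetrix Mouse Gene 1.1 ST arrays. Pml knockout (KO) mice and Pml wild-type (wt) mice were studied at 2 h and 6 h after 300 mg/kg acetaminophen (APAP), injected intraperitoneally in warmed PBS, and untreated, with 2 arrays in each of the 6 groups. The sources used here do not say whether the untreated mice received a vehicle injection, how the Pml allele was made, or whether each array came from a separate animal, so the spread behind the p-values is that of these arrays and may be technical. Pml encodes the protein around which PML nuclear bodies assemble. Values are log2 of the intensities the authors normalized with RMA, and differences are log2 differences between group means of 2 arrays, with the standard error of the fit after ±. A gene was called, and is said to have risen or fallen, at a limma p-value under 0.05 after Benjamini-Hochberg adjustment over all 17052 genes.

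Conjugation makes a compound water soluble so that bile or urine can carry it away. Glucuronidation draws on UDP-glucuronic acid, sulfation on the sulfate donor PAPS, and both clear most of a dose of APAP, while the reactive quinone imine that cytochrome P450 enzymes form from APAP is trapped by glutathione. UGTs sit in the endoplasmic reticulum membrane, SULTs and most GSTs in the cytosol.

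Pml stood at a log2 intensity of 7.10 and 7.97 in KO liver untreated, 7.11 and 7.50 after 2 h, then 7.09 and 7.16 after 6 h. The wt arrays read 8.18 and 8.46 untreated, 7.82 and 7.92 after 2 h, then 7.87 and 7.88 after 6 h. The array labelled untreated KO replicate 2, at 7.97, lay within the wt range. Over the 3 conditions the KO minus wt difference was -0.70 ± 0.14 (adjusted p = 0.035), a call that ended without any 1 of 9 arrays (-0.75 to -0.63, adjusted p of 0.0533 to 0.0991). It held without KO 2 h replicate 2 or without either untreated KO array. KO 6 h replicate 2 stood apart on the first principal component of all genes, at 19.8 against 39.7 for the other KO 6 h array. Among the conjugation genes 30 of 45 were nearer to the untreated KO mean in that array than in KO 6 h replicate 1. Without it 25 members were called in KO liver at 6 h, in place of 23. Hepatocyte markers summed to an intensity of 48653 to 50862 in KO liver at 6 h and to 52164 to 60285 in the other groups, with 7 of 8 markers measured. Tat differed most between the genotypes at 6 h, with a log2 intensity of 12.15 and 12.30 in KO and 13.01 and 12.91 in wt liver. The other markers lay closer together, as Alb did at 13.38 and 13.35 in KO and 13.36 and 13.39 in wt liver.

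After APAP most members that passed the test were lower than in untreated liver of the same genotype. At 2 h 18 of the 45 fell and 3 rose in KO liver, which is 46.7% of them called, where 31.4% of all tested genes were called. In wt liver at 2 h 12 fell and 1 rose, or 28.9% of members, where 12.7% of all genes were called and 6.53% rose. At 6 h 19 fell and 4 rose in KO liver (51.1%, where 34.9% of all genes were called). At that time 28 fell and 3 rose in wt liver (68.9%, where 38.4% of all genes were called). The falls made up 40% of members in KO liver at 2 h, 42.2% in KO liver at 6 h, 26.7% in wt liver at 2 h and 62.2% in wt liver at 6 h. Over all tested genes the shares that fell were 20.8%, 19.1%, 6.17% and 22% in the same order. The median difference of the 45 was -0.24 in KO liver at 2 h, -0.351 in KO liver at 6 h, -0.245 in wt liver at 2 h and -0.637 in wt liver at 6 h. The medians over all genes lay between -0.0645 and 0.0197. In these bulk samples fewer cells of a type and less RNA per cell cannot be told apart.

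The members that fell in all 4 treated groups were 8, namely Gsta3, Gstm6, Gstm7, Sult1b1, Sult1c2, Ugp2, Ugt2a3 and Ugt2b36. Gstp1 alone of the 45 rose in all 4. Another 4 members rose in at least 1 treated group, namely Ugdh, Sult1e1, Ugt2b35 and Sult3a2. No member rose in 1 treated group and fell in another. In none of the 4 were 11 members called, namely Gsto1, Gsto2, Mgst1, Sult2a6, Sult2b1, Sult3a1, Sult4a1, Sult5a1, Sult6b1, Ugt2b34 and Ugt2b37. The shares of all tested genes with these patterns were not counted, so the counts do not set the members apart from other genes. The count in KO liver at 2 h was 13 without untreated KO replicate 1. The count in wt liver at 2 h was 7 without untreated wt replicate 1, untreated wt replicate 2 or wt 2 h replicate 2.

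**Figure D1:**
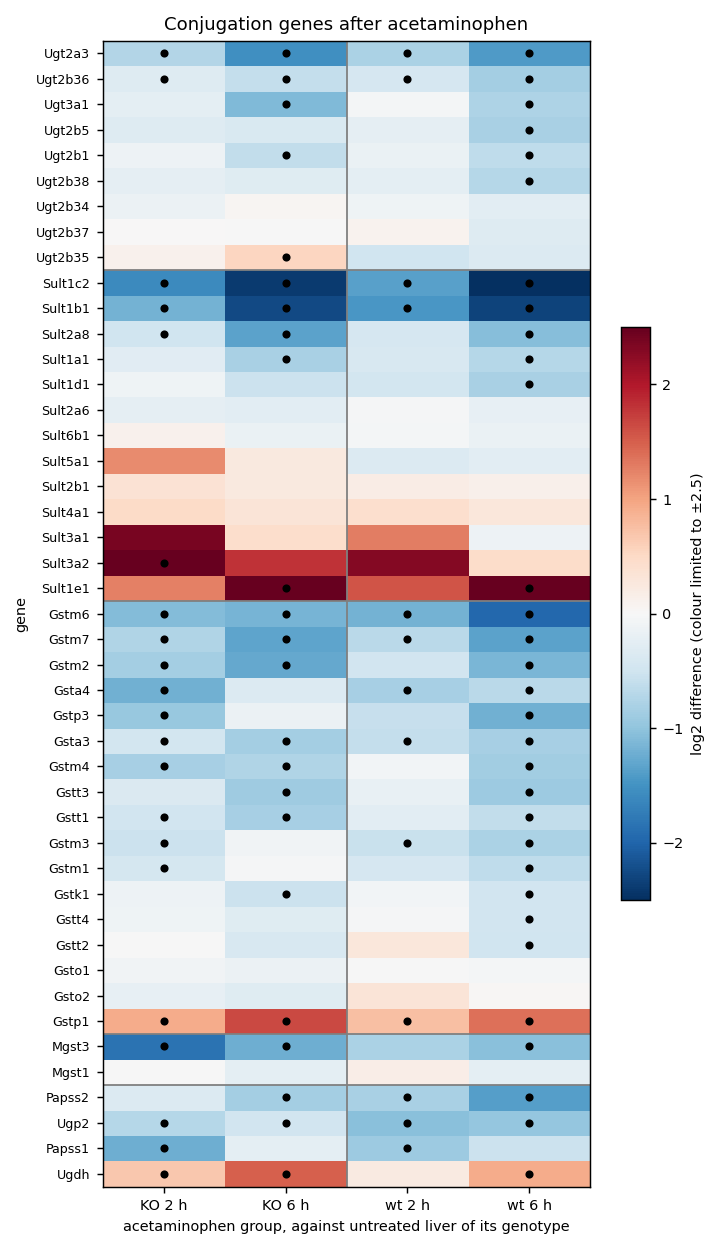
Log2 differences of the 45 conjugation genes (down the page, grouped as UGT, SULT, cytosolic or kappa GST, microsomal GST and cofactor supply) in KO and wt liver at 2 h and 6 h after acetaminophen against untreated liver of the same genotype, with black points where the gene was called. Blue, lower than untreated, covers most of the 28 genes called lower in wt liver at 6 h, and the red cells with points belong to Gstp1, Ugdh, Sult1e1, Ugt2b35 and Sult3a2.

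Ugdh, the UDP-glucose dehydrogenase that makes UDP-glucuronic acid, rose, while Ugp2, which makes its substrate UDP-glucose, fell. Ugdh had a log2 intensity of 11.14 and 10.81 untreated, 11.69 and 11.63 after 2 h, then 12.34 and 12.61 after 6 h in KO liver. The wt arrays had 10.87 and 11.04 untreated, 11.22 and 11.14 after 2 h, then 11.82 and 11.94 after 6 h. All arrays at 6 h lay above all untreated ones, and both KO arrays at 6 h lay above both wt arrays at that time. Ugdh rose by 0.68 ± 0.14 in KO liver after 2 h (adjusted p = 0.00469), and rose by 1.50 ± 0.14 after 6 h (adjusted p = 4.06e-05). In wt liver it was 0.22 ± 0.14 above untreated at 2 h (adjusted p = 0.331) and rose by 0.92 ± 0.14 at 6 h (adjusted p = 0.000508). On the linear scale the 6 h rises were 2.82-fold in KO liver and 1.89-fold in wt liver.

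Ugp2 had a log2 intensity of 10.95 and 10.84 untreated, 9.97 and 10.39 after 2 h, then 10.18 and 10.63 after 6 h in KO liver. Its wt values were 11.00 and 11.05 untreated, 10.04 and 9.92 after 2 h, then 9.96 and 10.14 after 6 h. No treated array of either genotype reached the untreated ones. The differences were -0.71 ± 0.17 and -0.49 ± 0.17 in KO liver (adjusted p = 0.00991 and 0.0452) and -1.04 ± 0.17 and -0.97 ± 0.17 in wt liver (adjusted p = 0.00323 and 0.00129) at 2 h and 6 h. The KO calls were the less steady ones. At 2 h the KO call ended without KO 2 h replicate 1 or untreated KO replicate 1 (-0.65 to -0.50, adjusted p of 0.0601 to 0.0737). At 6 h it ended without any 1 of 9 arrays (-0.55 to -0.27, adjusted p of 0.0526 to 0.314), all but the KO 2 h pair and KO 6 h replicate 2.

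Both PAPS synthases, which make the sulfate donor in cells, fell at 2 h in wt liver, and they then parted. Papss2 had a log2 intensity of 12.30 and 12.29 untreated, 12.02 and 11.89 after 2 h, then 11.19 and 11.71 after 6 h in KO liver, and 12.33 and 12.43 untreated, 11.74 and 11.42 after 2 h, then 11.16 and 10.83 after 6 h in wt liver. It was lower at 6 h than at 2 h (-0.54 ± 0.13, adjusted p = 0.0064, mean of both genotypes). Papss1 was lowest at 2 h instead, with 7.15 and 7.29 untreated, 6.28 and 5.73 after 2 h, then 6.89 and 7.07 after 6 h in KO liver. In wt liver Papss1 had 7.20 and 7.07 untreated, 6.05 and 6.40 after 2 h, then 6.40 and 6.79 after 6 h. Its 6 h level was above its 2 h level by 0.67 ± 0.14 (adjusted p = 0.00345). Against untreated liver Papss2 fell by 0.84 ± 0.18 at 6 h in KO liver (adjusted p = 0.00461), and it fell by 0.80 ± 0.18 in wt liver after 2 h (adjusted p = 0.0158) and by 1.38 ± 0.18 after 6 h (adjusted p = 0.000224). At 2 h in KO liver the Papss2 difference was -0.34 ± 0.18 (adjusted p = 0.173). Papss1 fell by 1.22 ± 0.20 in KO liver and by 0.91 ± 0.20 in wt liver at 2 h (adjusted p = 0.00168 and 0.0141) and was not called at 6 h (-0.24 and -0.54). The wt 2 h calls of Papss1 and Papss2 ended without untreated wt replicate 1 or 2 and, for Papss1, without wt 2 h replicate 1 (-0.97 to -0.74, adjusted p of 0.0605 to 0.12) or, for Papss2, without wt 2 h replicate 2 (-0.85 to -0.64, adjusted p of 0.0568 to 0.118).

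The promoters of the 2 genes that rose in both genotypes at 6 h with the smallest errors, Ugdh and Gstp1, are shown with that of Gsta3, which fell in all 4 treated groups. Each is the RefSeq window around the start of the gene in GRCm38.p6, at chr5:65435793-65436092 on the minus strand for Ugdh, chr19:4037863-4038162 on the minus strand for Gstp1 and chr1:21240335-21240634 on the plus strand for Gsta3. Capitals mark matches on either strand to TGACNNNGC, the core of the antioxidant response element that NRF2 is known to bind, or to TGAGNNNGC, a variant of it that was added after the Gstp1 promoter had been read.
Ugdh: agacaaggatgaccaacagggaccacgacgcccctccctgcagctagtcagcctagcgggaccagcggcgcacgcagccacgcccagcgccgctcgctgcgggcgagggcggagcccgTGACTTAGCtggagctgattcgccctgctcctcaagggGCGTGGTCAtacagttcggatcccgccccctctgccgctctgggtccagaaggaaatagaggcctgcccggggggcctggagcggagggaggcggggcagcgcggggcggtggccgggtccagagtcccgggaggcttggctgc
Gstp1: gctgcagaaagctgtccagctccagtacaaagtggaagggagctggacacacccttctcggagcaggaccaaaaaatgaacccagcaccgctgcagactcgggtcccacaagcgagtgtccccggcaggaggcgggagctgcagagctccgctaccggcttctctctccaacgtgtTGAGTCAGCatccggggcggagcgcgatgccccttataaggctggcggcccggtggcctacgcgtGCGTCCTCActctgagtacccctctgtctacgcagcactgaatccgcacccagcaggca
Gsta3: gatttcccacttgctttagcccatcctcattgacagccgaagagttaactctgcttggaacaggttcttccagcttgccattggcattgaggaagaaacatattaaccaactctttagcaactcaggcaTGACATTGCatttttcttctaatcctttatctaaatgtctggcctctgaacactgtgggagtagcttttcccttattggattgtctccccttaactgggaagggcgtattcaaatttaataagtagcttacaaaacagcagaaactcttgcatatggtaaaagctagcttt
Ugdh has 2 matches to TGACNNNGC, with first bases at -132 and -94 from the gene start. Gsta3 has 1, at -121. Gstp1 has none of these and 2 matches to TGAGNNNGC, at -74 and -9. Of 42 members with a promoter in the RefSeq table, 4 hold TGACNNNGC (9.52%), namely Ugdh, Gsta3, Gstm7 and Mgst1, and 14.0% of 27025 genes do. TGAGNNNGC is in 11 of the 42 (26.2%), Sult1e1, Sult1b1, Sult1c2 and Ugt2a3 among them, and in 19.8% of all genes. Genes that rose and genes that fell are thus in both sets, and a match is a run of letters, not a site shown to be bound.

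**Figure D2:**
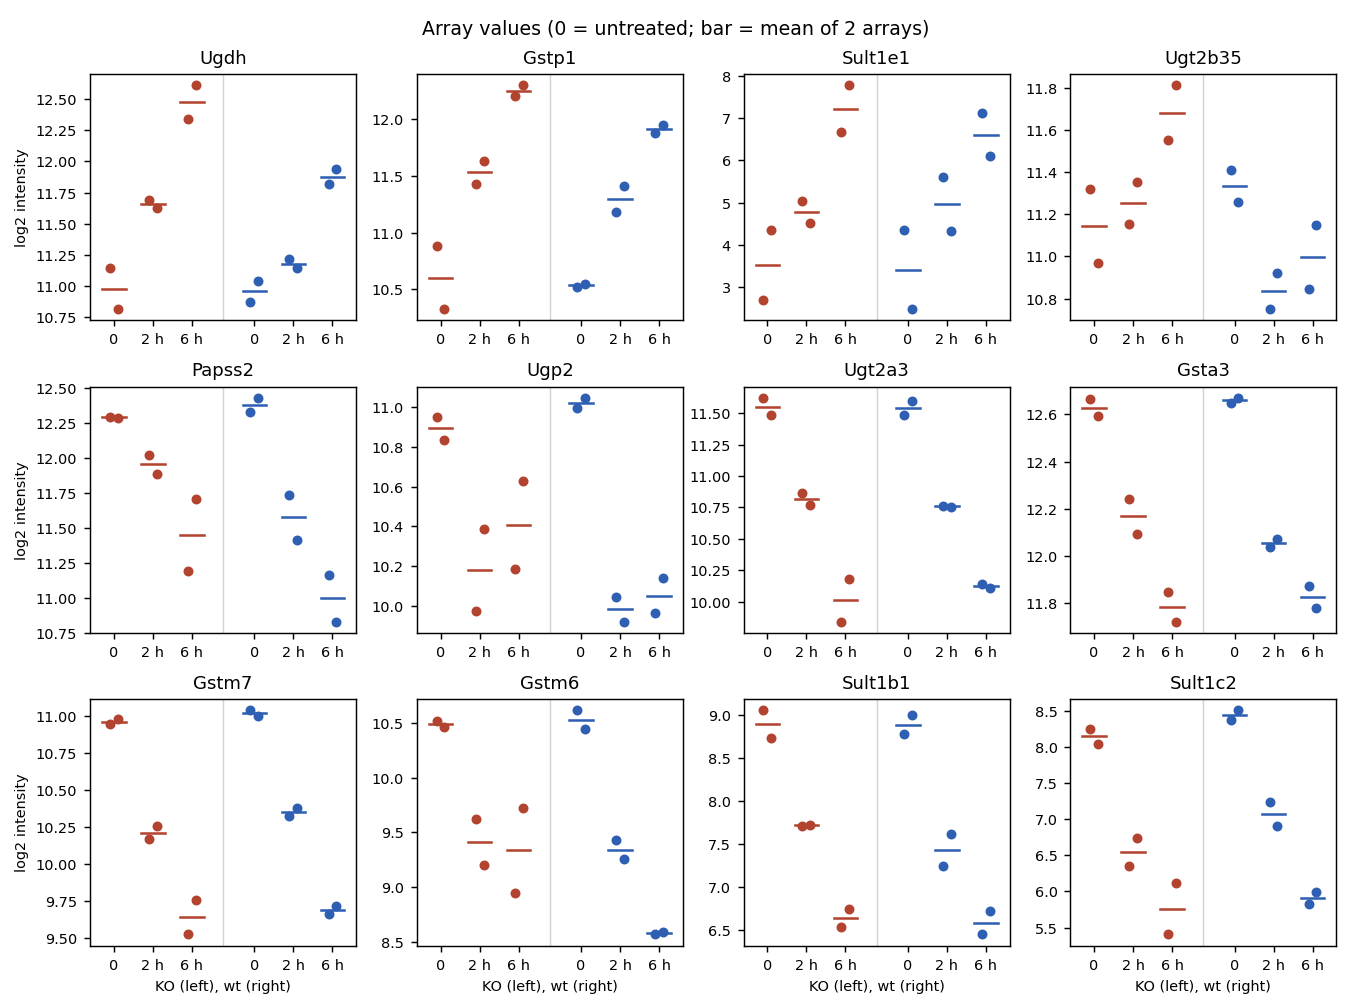
Log2 intensity of 12 conjugation genes in every array (points) with the mean of the 2 arrays of a group (bars), KO in red on the left and wt in blue on the right of each panel, untreated (0), 2 h and 6 h after acetaminophen. Ugdh, Gstp1 and Sult1e1 climb to 6 h in both genotypes, Gstm7, Sult1b1, Sult1c2, Ugt2a3 and Gsta3 descend, and Ugt2b35 is at 11.55 and 11.81 in KO liver at 6 h, against 10.85 and 11.15 in wt liver.

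Among the 9 UGT genes, 2 fell in KO liver and 2 in wt liver at 2 h, and 4 fell and 1 rose in KO liver at 6 h, where 6 fell in wt liver. At 2 h 22.2% were called in each genotype, where 31.4% of all genes were called in KO and 12.7% in wt liver. At 6 h 55.6% were called in KO and 66.7% in wt liver, where 34.9% and 38.4% of all genes were called. Of the 9, Ugt2a3 fell most. Its log2 intensity was 11.62 and 11.48 untreated, 10.87 and 10.77 after 2 h, then 9.84 and 10.18 after 6 h in KO liver, and 11.48 and 11.60 untreated, 10.76 and 10.76 after 2 h, then 10.14 and 10.11 after 6 h in wt liver. The 3 stages did not overlap in either genotype. The differences were -0.73 ± 0.12 after 2 h and -1.54 ± 0.12 after 6 h in KO liver (adjusted p = 0.00194 and 1.96e-05) and -0.78 ± 0.12 and -1.41 ± 0.12 in wt liver (adjusted p = 0.0027 and 2.62e-05). Ugt2b36 fell by 0.59 ± 0.10 in KO liver and by 0.85 ± 0.10 in wt liver at 6 h (adjusted p = 0.00122 and 0.000129). Its 2 h falls were smaller, -0.33 ± 0.10 in KO liver and -0.43 ± 0.10 in wt liver (adjusted p = 0.0272 and 0.0181). The KO 2 h call of Ugt2b36 ended without KO 2 h replicate 1 or either untreated KO array (-0.34 to -0.24, adjusted p of 0.0914 to 0.155), and the wt 2 h call without either untreated wt or either wt 2 h array (-0.46 to -0.40, adjusted p of 0.077 to 0.105).

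Ugt3a1 and Ugt2b1 were called only at 6 h. Ugt3a1, whose product is known to use N-acetylglucosamine in place of glucuronic acid, fell by 1.11 ± 0.16 in KO liver and by 0.78 ± 0.16 in wt liver (adjusted p = 0.000468 and 0.00311). Ugt2b1 fell by 0.62 ± 0.12 in KO liver and by 0.63 ± 0.12 in wt liver (adjusted p = 0.0029 and 0.00223). Ugt2b5 and Ugt2b38 fell in wt liver at 6 h by 0.81 ± 0.14 and 0.71 ± 0.13 (adjusted p = 0.00124 and 0.00207), with -0.37 ± 0.14 and -0.30 ± 0.13 in KO liver (adjusted p = 0.0626 and 0.109). Ugt2b34, with the highest mean intensity of the class, and Ugt2b37 were not called in any treated group, with differences of -0.32 to 0.09.

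Ugt2b35 was the exception in direction. It had a log2 intensity of 11.32 and 10.97 untreated, 11.16 and 11.35 after 2 h, then 11.55 and 11.81 after 6 h in KO liver. The wt arrays gave 11.41 and 11.26 untreated, 10.75 and 10.92 after 2 h, then 10.85 and 11.15 after 6 h. It rose by 0.54 ± 0.16 in KO liver at 6 h (adjusted p = 0.0243), and was -0.34 ± 0.16 from untreated in wt liver (adjusted p = 0.121). The KO call ended without KO 6 h replicate 2 or untreated KO replicate 2 (0.36 to 0.41, adjusted p of 0.136 to 0.185), and in a fit of the compared groups only (adjusted p = 0.0576). In RefSeq Ugt2b34, Ugt2b1, Ugt2b35, Ugt2b36, Ugt2b5, Ugt2b37, Ugt2a3 and Ugt2b38 follow one another with no other protein-coding gene between them, so neighbours in 1 cluster differed in direction. Genes of these families are alike in sequence, and probes of 1 member may bind transcripts of another, which was not tested.

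Of the 13 SULT genes 3 fell and 1 rose in KO liver and 2 fell in wt liver at 2 h, and 4 fell and 1 rose in KO liver and 5 fell and 1 rose in wt liver at 6 h. These shares were near those of all genes. At 2 h 30.8% were called in KO and 15.4% in wt liver, where 31.4% and 12.7% of all genes were called. At 6 h 38.5% were called in KO and 46.2% in wt liver, where 34.9% and 38.4% of all genes were called. Sult1c2, a phenol-type sulfotransferase, had a log2 intensity of 8.25 and 8.04 untreated, 6.36 and 6.73 after 2 h, then 5.41 and 6.11 after 6 h in KO liver, and 8.37 and 8.50 untreated, 7.24 and 6.91 after 2 h, then 5.83 and 5.99 after 6 h in wt liver. Sult1b1, known to sulfate thyroid hormones, had 9.05 and 8.73 untreated, 7.71 and 7.72 after 2 h, then 6.54 and 6.74 after 6 h in KO liver, and 8.78 and 8.996 untreated, 7.24 and 7.61 after 2 h, then 6.45 and 6.71 after 6 h in wt liver. Both genes stepped down at each time without overlap in either genotype. At 6 h Sult1c2 fell by 2.39 ± 0.22 in KO liver and by 2.52 ± 0.22 in wt liver (adjusted p = 4.19e-05 and 2.65e-05). Sult1b1 fell by 2.25 ± 0.16 in KO liver and by 2.31 ± 0.16 in wt liver at that time (adjusted p = 1.37e-05 and 9.52e-06). At 6 h Sult1b1 was at 0.210 times its untreated intensity in KO liver and at 0.202 times in wt liver. At 2 h the falls were 1.60 and 1.18 in KO liver and 1.36 and 1.46 in wt liver for Sult1c2 and Sult1b1, all called in limma.

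Sult2a8, a hydroxysteroid sulfotransferase, fell by 0.49 ± 0.13 in KO liver after 2 h (adjusted p = 0.0166) and by 1.35 ± 0.13 after 6 h (adjusted p = 5.54e-05), and by 1.06 ± 0.13 at 6 h in wt liver (adjusted p = 0.000172). Its KO 2 h call ended without KO 2 h replicate 1 or untreated KO replicate 1 (-0.43 to -0.36, adjusted p of 0.0883 to 0.12). Sult1a1, the main phenol sulfotransferase, fell at 6 h by 0.81 ± 0.20 in KO liver and by 0.71 ± 0.20 in wt liver (adjusted p = 0.0093 and 0.0154). These 2 calls of Sult1a1 were not steady. The KO one ended without KO 6 h replicate 2 or untreated KO replicate 1 (-0.72 to -0.62, adjusted p of 0.0503 to 0.0778) and the wt one without wt 6 h replicate 1 or either untreated wt array (-0.73 to -0.51, adjusted p of 0.0551 to 0.12). Sult1d1, known in mice to sulfate catecholamines, had the highest mean of the class and fell by 0.81 ± 0.27 in wt liver at 6 h (adjusted p = 0.0349). That call ended without wt 6 h replicate 2 or either untreated wt array (-0.83 to -0.53, adjusted p of 0.11 to 0.221) and after quantile normalization (adjusted p = 0.0606). In KO liver at 6 h Sult1d1 was -0.54 ± 0.27 from untreated (adjusted p = 0.143).

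Sult1e1, the estrogen sulfotransferase, went the other way. Its log2 intensity was 2.69 and 4.35 untreated, 5.03 and 4.52 after 2 h, then 6.67 and 7.78 after 6 h in KO liver. The wt arrays stood at 4.34 and 2.47 untreated, 5.61 and 4.33 after 2 h, then 7.11 and 6.11 after 6 h. The untreated values were dim and far apart, and all arrays at 6 h lay above all others. Sult1e1 rose by 3.70 ± 0.72 in KO liver and by 3.20 ± 0.72 in wt liver at 6 h (adjusted p = 0.00282 and 0.00535). Since Sult1e1 reached the threshold only through these 6 h arrays, the fit with no filter is the one to read, and there the adjusted p was 0.00348 in KO liver and 0.00644 in wt liver. When 16 was added to each intensity before the logarithm, the rises were 2.54 and 2.03, smaller by over 1.5 times in wt liver. The wt call ended without untreated wt replicate 2 (2.27, adjusted p = 0.0547). Sult1b1, Sult1d1 and Sult1e1 are next to each other in RefSeq.

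Sult3a1 and Sult3a2, neighbours known in mice to sulfate amines, varied widely between arrays of a group. Sult3a2 had a log2 intensity of 2.97 and 5.91 untreated, 6.29 and 10.51 after 2 h, then 7.19 and 5.30 after 6 h in KO liver. Among wt arrays it had 3.30 and 5.04 untreated, 5.36 and 7.58 after 2 h, then 4.69 and 4.59 after 6 h. Its rise of 3.96 ± 1.36 in KO liver at 2 h (adjusted p = 0.0481) ended with no filter (adjusted p = 0.0531) and without any 1 of 10 arrays, all but KO 2 h replicate 1 and untreated KO replicate 2. Without KO 2 h replicate 2 the difference was 1.85 (adjusted p = 0.32) and without untreated KO replicate 1 it was 2.49 (adjusted p = 0.276). Sult3a1 ranged from 6.94 to 11.35 in KO arrays and from 7.40 to 10.13 in wt arrays and was not called against untreated liver. Sult5a1 ranged from 5.71 to 8.22 in KO arrays and from 4.36 to 6.62 in wt arrays, likewise not called. Sult2a6, Sult2b1, Sult4a1 and Sult6b1 differed from untreated liver by -0.27 to 0.47 and were not called.

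Of the 17 cytosolic or kappa GST genes 10 fell in KO liver and 5 in wt liver at 2 h, and 8 fell in KO liver and 14 in wt liver at 6 h. Gstp1 rose in each of these groups. At 2 h 64.7% were called in KO and 35.3% in wt liver, where 31.4% and 12.7% of all genes were called. At 6 h 52.9% were called in KO and 88.2% in wt liver, where 34.9% and 38.4% of all genes were called. Gstp1, the pi-class enzyme, is known for mice without pi-class genes being resistant to APAP. It had a log2 intensity of 10.88 and 10.32 untreated, 11.43 and 11.63 after 2 h, then 12.20 and 12.30 after 6 h in KO liver, and 10.52 and 10.55 untreated, 11.18 and 11.41 after 2 h, then 11.88 and 11.95 after 6 h in wt liver. The stages did not overlap in either genotype. Gstp1 rose by 0.93 ± 0.16 in KO liver after 2 h (adjusted p = 0.00261) and by 1.65 ± 0.16 after 6 h (adjusted p = 6.97e-05), and by 0.76 ± 0.16 and 1.38 ± 0.16 in wt liver (adjusted p = 0.0143 and 0.000147). The wt 2 h call ended without wt 2 h replicate 2 or either untreated wt array (0.65 to 0.78, adjusted p of 0.07 to 0.104). Gstp3, of the same class, did not share this direction. Gstp3 fell by 0.94 ± 0.27 in KO liver at 2 h and by 1.20 ± 0.27 in wt liver at 6 h (adjusted p = 0.0226 and 0.00541), with -0.14 ± 0.27 in KO liver at 6 h. Its KO 2 h call ended without KO 2 h replicate 2 or either untreated KO array (-1.08 to -0.77, adjusted p of 0.0502 to 0.13).

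All 6 mu-class genes fell in KO liver at 2 h and in wt liver at 6 h, 4 of them fell in KO liver at 6 h and 3 in wt liver at 2 h. They stand in 1 run in RefSeq, in the order Gstm7, Gstm6, Gstm3, Gstm2, Gstm1 and Gstm4. Gstm6 had a log2 intensity of 10.52 and 10.47 untreated, 9.62 and 9.20 after 2 h, then 8.95 and 9.72 after 6 h in KO liver, and 10.62 and 10.45 untreated, 9.43 and 9.26 after 2 h, then 8.57 and 8.59 after 6 h in wt liver. Gstm7 had 10.95 and 10.98 untreated, 10.17 and 10.25 after 2 h, then 9.52 and 9.76 after 6 h in KO liver, and 11.04 and 11.00 untreated, 10.32 and 10.38 after 2 h, then 9.66 and 9.72 after 6 h in wt liver. Gstm7 stepped down alike in both genotypes, while Gstm6 at 6 h was lower in both wt arrays than in both KO arrays. Gstm7 fell by 1.32 ± 0.10 in KO liver and by 1.33 ± 0.10 in wt liver at 6 h (adjusted p = 1.8e-05 and 1.59e-05). Gstm6 fell by 1.16 ± 0.22 in KO liver at 6 h (adjusted p = 0.00247), where the wt difference was -1.96 ± 0.22 (adjusted p = 0.000103), and its wt 2 h fall of 1.19 was not called without wt 2 h replicate 2 (-1.10, adjusted p = 0.0557). Gstm2 fell by 1.28 ± 0.18 and 1.15 ± 0.18 at 6 h in KO and wt liver (adjusted p = 0.000468 and 0.000751).

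As the mean of 2 arrays, Gstm1 and Gstm3 were near their untreated level again in KO liver at 6 h. The arrays split, with KO 6 h replicate 1 below both untreated KO arrays and replicate 2 above both for each gene. Gstm3 stood at 11.03 and 11.53 in these arrays, against 11.43 and 11.29 in untreated KO liver. Gstm1 had a log2 intensity of 12.03 and 11.87 untreated, 11.37 and 11.64 after 2 h, then 11.79 and 12.03 after 6 h in KO liver. The wt values were 12.10 and 11.98 untreated, 11.58 and 11.65 after 2 h, then 11.33 and 11.48 after 6 h. The difference from untreated at 6 h was -0.04 ± 0.13 in KO liver (adjusted p = 0.855) and -0.64 ± 0.13 in wt liver (adjusted p = 0.00328). For Gstm3 it was -0.08 ± 0.15 in KO liver (adjusted p = 0.709) and -0.79 ± 0.15 in wt liver (adjusted p = 0.00238). A second probe set of Gstm3 was not called in any comparison and differed at 6 h by 0.43 in KO liver and -0.77 in wt liver. In KO 6 h replicate 2 it stood at 10.26, the highest of its 12 values. The KO 2 h falls of Gstm1 (-0.44 ± 0.13, adjusted p = 0.0257), Gstm3 (-0.54 ± 0.15, adjusted p = 0.0213) and Gstm4 (-0.84 ± 0.27, adjusted p = 0.0365) were each lost without KO 2 h replicate 1 or either untreated KO array (-0.52 to -0.31, -0.61 to -0.44 and -1.04 to -0.38, lowest adjusted p of 0.0566, 0.0579 and 0.0571). Gstm3 in wt liver at 2 h (-0.56 ± 0.15, adjusted p = 0.0378) lost its call without any untreated or wt 2 h array (-0.61 to -0.50, adjusted p of 0.0527 to 0.161). Gstm4 at 6 h (-0.76 ± 0.27 in KO liver and -0.87 ± 0.27 in wt liver, adjusted p = 0.0491 and 0.0254) lost the KO call without any 1 of 9 arrays, the exceptions being both KO 2 h arrays and KO 6 h replicate 2 (-0.96 to -0.56), and the wt call without any wt 6 h or untreated wt array (-0.96 to -0.78, adjusted p of 0.0598 to 0.127).

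Gsta3, the alpha-class enzyme known for clearing aflatoxin in mice, has the highest mean of the class. It had a log2 intensity of 12.66 and 12.59 untreated, 12.24 and 12.09 after 2 h, then 11.85 and 11.72 after 6 h in KO liver, and 12.65 and 12.67 untreated, 12.04 and 12.07 after 2 h, then 11.87 and 11.78 after 6 h in wt liver. The 3 stages did not overlap in either genotype. Gsta3 fell by 0.84 ± 0.10 in KO liver and by 0.83 ± 0.10 in wt liver at 6 h (adjusted p = 0.000163 and 0.000145). Gsta4, which clears the lipid peroxidation product 4-hydroxynonenal, was lowest at 2 h in KO liver. It had 11.10 and 11.07 untreated, 9.73 and 10.05 after 2 h, then 10.62 and 10.84 after 6 h in KO liver, and 11.06 and 11.10 untreated, 10.39 and 10.13 after 2 h, then 10.10 and 10.70 after 6 h in wt liver. Gsta4 fell by 1.19 ± 0.19 in KO liver and by 0.83 ± 0.19 in wt liver at 2 h (adjusted p = 0.0015 and 0.0174), and by 0.68 ± 0.19 in wt liver at 6 h (adjusted p = 0.0156). The wt calls of Gsta4 ended without either untreated wt array, without either wt 2 h array at 2 h (-0.95 to -0.70, adjusted p of 0.0523 to 0.12) and without wt 6 h replicate 1 at 6 h (-0.70 to -0.38, adjusted p of 0.0545 to 0.128).

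The theta class fell mainly at 6 h, all 4 members in wt liver and Gstt1 and Gstt3 in KO liver. Gstt1 fell by 0.84 ± 0.11 in KO liver and by 0.61 ± 0.11 in wt liver (adjusted p = 0.000279 and 0.0015), and Gstt3 by 0.88 ± 0.20 in KO liver and by 0.91 ± 0.20 in wt liver (adjusted p = 0.00605 and 0.00445). Gstt1 also fell by 0.47 ± 0.11 in KO liver at 2 h (adjusted p = 0.00916), except without untreated KO replicate 2 (-0.46, adjusted p = 0.0528). Gstt2 and Gstt4 fell by 0.49 ± 0.15 and 0.47 ± 0.12 in wt liver at 6 h (adjusted p = 0.0274 and 0.0115), with -0.40 ± 0.15 and -0.31 ± 0.12 in KO liver. These calls ended without untreated wt replicate 2 or either wt 6 h array for Gstt2 (-0.56 to -0.31, adjusted p of 0.0591 to 0.224) and without wt 6 h replicate 2 or untreated wt replicate 1 for Gstt4 (-0.41 to -0.38, adjusted p of 0.0729 to 0.077). Gstk1, the kappa-class enzyme of mitochondria and peroxisomes, fell at 6 h by 0.55 ± 0.12 in KO liver and by 0.47 ± 0.12 in wt liver (adjusted p = 0.00531 and 0.0101), the wt call ending without wt 6 h replicate 1 or untreated wt replicate 2 (-0.45 to -0.38, adjusted p of 0.0625 to 0.0747). The omega-class genes Gsto1 and Gsto2, known for reducing dehydroascorbate, were not called, and Gsto1 lay between 9.95 and 10.12 in all 12 arrays.

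Of the microsomal enzymes Mgst3 fell and Mgst1 was not called against untreated liver. Mgst3 had a log2 intensity of 8.60 and 8.40 untreated, 6.18 and 7.13 after 2 h, then 6.88 and 7.69 after 6 h in KO liver. The wt arrays read 8.25 and 8.58 untreated, 7.84 and 7.40 after 2 h, then 7.26 and 7.47 after 6 h. Every treated array lay below every untreated one. Mgst3 fell by 1.84 ± 0.32 in KO liver after 2 h (adjusted p = 0.00234) and by 1.21 ± 0.32 after 6 h (adjusted p = 0.0144), and by 1.05 ± 0.32 at 6 h in wt liver (adjusted p = 0.0247), with -0.79 ± 0.32 at 2 h in wt liver (adjusted p = 0.137). The KO 6 h call ended without KO 6 h replicate 1 or untreated KO replicate 1 (-1.11 to -0.80, adjusted p of 0.0758 to 0.122) and the wt 6 h call without untreated wt replicate 2 or either wt 6 h array (-1.15 to -0.88, adjusted p of 0.0586 to 0.14). Mgst1, the abundant microsomal enzyme, was -0.23 ± 0.10 from untreated in KO liver and -0.25 ± 0.10 in wt liver at 6 h (adjusted p = 0.101 and 0.0791).

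Between the times, 21 members were lower and 5 higher at 6 h than at 2 h as the mean of both genotypes, 57.8% of the 45, where 41.3% of all tested genes were called. The 5 were Gsta4, Gstp1, Papss1, Sult1e1 and Ugdh. Gstp1 stood higher at 6 h by 0.67 ± 0.12 (adjusted p = 0.00129), Ugdh by 0.76 ± 0.10 (adjusted p = 0.000205) and Sult1e1 by 2.04 ± 0.51 (adjusted p = 0.00897, and 0.0105 with no filter). Among the 21, Mgst1 (-0.32 ± 0.07, adjusted p = 0.00551) and Sult3a1 (-1.67 ± 0.60, adjusted p = 0.0453) had not been called against untreated liver. The Sult3a1 call ended without any 1 of 7 arrays (-1.89 to -1.19, adjusted p of 0.0519 to 0.158), namely KO 2 h replicate 2, KO 6 h replicate 2, wt 2 h replicate 2, both wt 6 h arrays and both untreated wt arrays. The Gsta4 call (0.49 ± 0.13, adjusted p = 0.0136) ended without wt 2 h replicate 2 (0.43, adjusted p = 0.0517).

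Several genes of these families have no probe set of their own and were read from probe sets that carry several symbols, in a fit of 30567 probe sets. They are not counted above. Of all these probe sets 27% were called in KO liver at 6 h, 30.3% in wt liver at 6 h, 24.7% in KO liver at 2 h and 9.36% in wt liver at 2 h. The probe set of 8 Ugt1a genes, which include the main glucuronidating enzymes for phenols, had a log2 intensity of 10.98 and 11.16 in KO liver at 6 h, against 11.51 and 11.46 in untreated KO liver. The wt arrays had 11.01 and 11.01 at 6 h, against 11.62 and 11.60 in untreated wt liver. It fell by 0.41 ± 0.09 in KO liver and by 0.60 ± 0.09 in wt liver (adjusted p = 0.0113 and 0.00162).

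The 4 probe sets that carry the alpha-class genes Gsta1 and Gsta2 also carry Gm10639 and, in 3 of them, Gm3776, so their values belong to no 1 gene. They moved down and then up in wt liver. The probe set with the highest values had a log2 intensity of 9.93 and 9.44 untreated, 8.79 and 9.43 after 2 h, then 11.71 and 11.82 after 6 h in KO liver. The wt arrays read 9.66 and 9.91 untreated, 7.88 and 6.66 after 2 h, then 11.07 and 11.62 after 6 h. On this probe set the 2 h arrays were the lowest of each genotype and the 6 h arrays the highest, though in KO liver only by 9.43 at 2 h against 9.44 untreated. Not all of the 4 had this order. KO 2 h replicate 2 stood above untreated KO replicate 2 at 9.36 against 9.33 on another and at 9.05 against 9.01 on a further one. At 6 h the 4 probe sets rose by 2.06 to 2.11 in KO liver (adjusted p of 0.00364 to 0.00411) and by 1.48 to 1.56 in wt liver (adjusted p of 0.0133 to 0.0154). At 2 h they were -0.58 to -0.51 from untreated in KO liver (adjusted p of 0.282 to 0.34) and fell in wt liver, with differences of -2.52 to -2.47 (adjusted p of 0.00525 to 0.00537). KO stood above wt at 2 h by 1.78 to 1.86 (adjusted p of 0.0469 to 0.0483, where 1.86% of probe sets were called). That call ended without any 1 of the 12 arrays, and the difference between the KO and wt responses was 1.90 to 1.97 ± 0.52 to 0.53 and did not pass (adjusted p of 0.183 to 0.194). The wt 6 h rise was not called without wt 6 h replicate 2 or untreated wt replicate 1 (1.21 to 1.43, adjusted p of 0.0674 to 0.0921), and for 1 of the 4 probe sets also not without untreated wt replicate 2 (1.60, adjusted p = 0.0523).

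The 2 probe sets shared by Gstp1 and Gstp2 followed Gstp1, with rises of 1.63 to 1.65 in KO liver and 1.32 to 1.34 in wt liver at 6 h, all called in limma. The probe set shared by Gstz1, an enzyme of tyrosine breakdown, and Pomt2 fell by 0.83 ± 0.10 in KO liver and by 0.84 ± 0.10 in wt liver at 6 h (adjusted p = 0.000545 and 0.000451). The 3 probe sets of Ugt3a1 and Ugt3a2 fell at 6 h by 0.50 to 0.65 in KO liver and by 0.48 to 0.58 in wt liver. The Gstm5 probe set, shared with 1 other symbol, fell by 0.61 ± 0.20 in KO liver and by 0.84 ± 0.20 in wt liver at 6 h (adjusted p = 0.048 and 0.0115). Probe sets of Sult2a1 and Sult2a2, hydroxysteroid sulfotransferases, were not called and split within groups. On 1 of them untreated KO replicate 1 and KO 2 h replicate 1 stood at 6.82 and 6.50, and the other 10 arrays at 8.57 to 10.57. The Ugt2a1 and Ugt2a2 probe set was not called (-0.36 in KO liver and -0.35 in wt liver at 6 h).

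**Figure D3:**
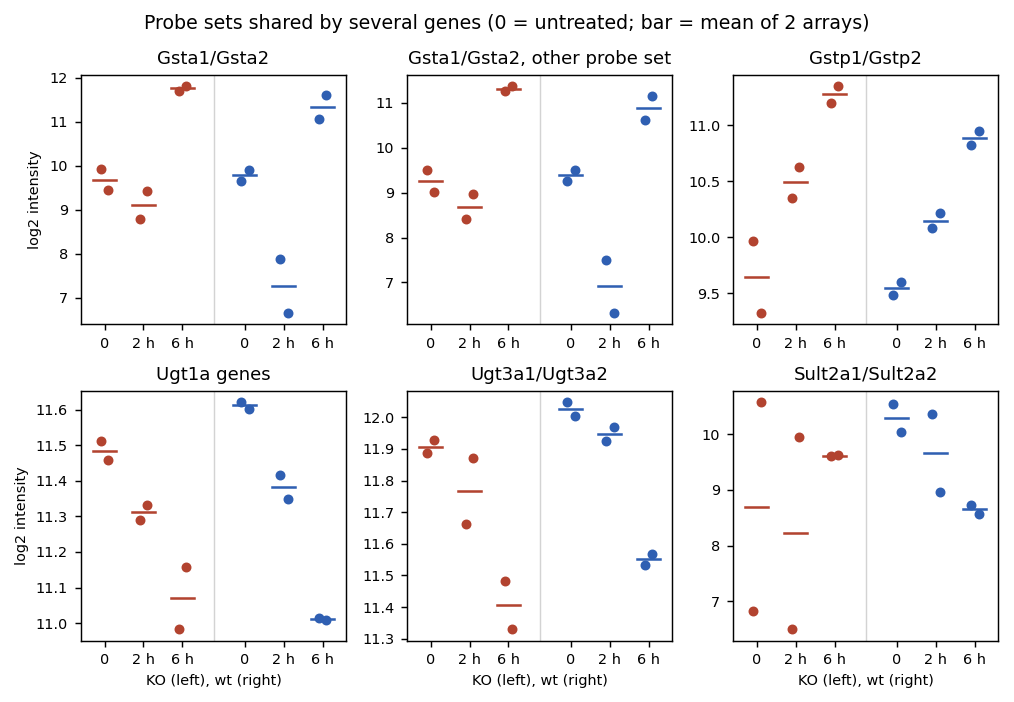
Log2 intensity in every array (points, with group means as bars) of 6 probe sets that carry several gene symbols, KO in red on the left and wt in blue on the right, untreated (0), 2 h and 6 h after acetaminophen. The group means of the Gsta1/Gsta2 probe sets are lowest at 2 h and highest at 6 h, Gstp1/Gstp2 climbs, the Ugt1a and Ugt3a probe sets descend, and Sult2a1/Sult2a2 has 2 KO arrays far below the rest.

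KO against wt liver asks whether Pml changes the level of these genes. In untreated liver limma called 0 of the 45 (0 at an unadjusted p under 0.05), where 0.00586% of all genes were called. At 2 h it called 0 (10 at an unadjusted p under 0.05), where 2.01% of all genes were called, and 2 were lower in KO without KO 2 h replicate 2. At 6 h 4 members were higher in KO and none lower, 8.89% of the 45, where 9.02% of all genes were called, 4.09% higher and 4.93% lower. They were Ugdh (0.60 ± 0.14, adjusted p = 0.0269), Gstm3 (0.63 ± 0.15, adjusted p = 0.031), Gstm1 (0.51 ± 0.13, adjusted p = 0.0382) and Ugt2b35 (0.69 ± 0.16, adjusted p = 0.0282). In each of the 4, both KO arrays at 6 h lay above both wt arrays, which adds no support, since this same comparison picked the genes. Without KO 6 h replicate 2 or wt 6 h replicate 1 the count was 0, without either wt 2 h array or wt 6 h replicate 2 it was 2, and without KO 6 h replicate 1 it was 8 (7 higher and 1 lower). With KO 6 h replicate 2 (set apart on the first component) or wt 6 h replicate 1 left out, Ugdh differed by 0.46 to 0.54 (adjusted p of 0.163 to 0.175) and Ugt2b35 by 0.54 to 0.56 (adjusted p of 0.168 to 0.202). Gstm3 lost its call without either of those 2 arrays, wt 6 h replicate 2 or either wt 2 h array (0.39 to 0.68, adjusted p of 0.0505 to 0.184). Gstm1 lost it without any 1 of 9 arrays, all but the KO 2 h pair and KO 6 h replicate 1 (0.39 to 0.59, adjusted p of 0.0529 to 0.229). In a fit of the 6 h groups alone the adjusted p of the 4 was 0.103 to 0.138.

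Over the 3 conditions Ugdh was the 1 member called, higher in KO by 0.37 ± 0.08 (adjusted p = 0.0483), 2.22% of the 45, where 1.78% of all genes were called and 0.328% were higher. That call ended without any 1 of 9 arrays (0.31 to 0.39, adjusted p of 0.0552 to 0.124), the exceptions being KO 2 h replicate 2, KO 6 h replicate 1 and untreated KO replicate 2. The KO response minus the wt response, which tests whether the genotypes respond unequally, was called for 0 members at 2 h (4 at an unadjusted p under 0.05 in limma, with 0.0293% of all genes called, 0.0117% above 0 and 0.0176% below). It was called for 0 at 6 h (8 at an unadjusted p under 0.05, with 0.487% of all genes called, 0.088% above 0 and 0.399% below), and for 3 without KO 6 h replicate 1. It came to 0.46 ± 0.19 after 2 h (adjusted p = 0.306) and 0.58 ± 0.19 after 6 h (adjusted p = 0.189) for Ugdh, for Gstm1 0.60 ± 0.18 at 6 h (adjusted p = 0.163) and for Gstm3 0.70 ± 0.21 at 6 h (adjusted p = 0.161). At 6 h it was above 0 in 32 of the 45 members (71.1%) and in 53.4% of all tested genes. By family it was above 0 in 7 of 7 Ugt2b, 5 of 6 Gstm, 3 of 4 Gstt, 2 of 2 Gstp, 1 of 2 Gsta and 0 of 2 Gsto genes, and in 4 of 5 Sult1, 1 of 3 Sult2 and 2 of 2 Sult3 genes. These are signs of differences that did not pass the test, and they lean in part on KO 6 h replicate 2, the array set apart above. With KO 6 h replicate 1 alone, the KO minus wt response turned below 0 for Gstm4, Gstm7, Gstt2, Gstt3, Sult1b1, Sult1c2, Sult1d1 and Sult1e1. For Gsta3 and Sult6b1 it turned above 0.

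**Figure D4:**
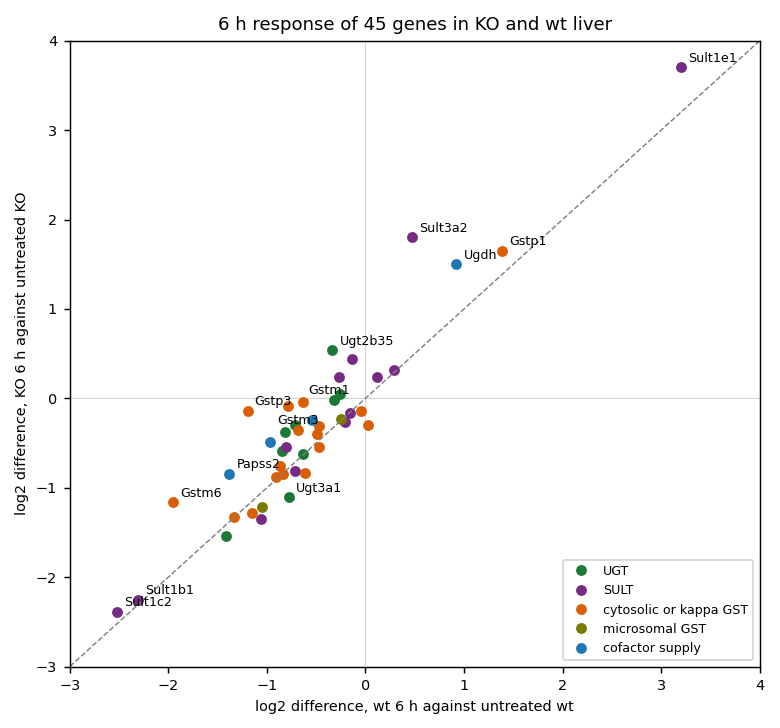
Log2 difference at 6 h after acetaminophen of the 45 conjugation genes in KO liver (vertical axis) against wt liver (horizontal axis), each against untreated liver of its genotype, coloured by class, with the dashed line where both are equal. Points above the line have a higher KO than wt response, as 32 of the 45 do (71.1%, with 53.4% of all genes above it and none of the 45 differences called). Fewer members would lie above it with KO 6 h replicate 1 alone. Sult1e1, Gstp1 and Ugdh lie at the upper right while Sult1c2 and Sult1b1 lie at the lower left in both genotypes.

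Markers of other cells moved with genotype and time. Of 9 neutrophil markers 7 were lower in KO than in wt liver at 6 h, where 4.93% of all genes were lower. The summed intensity of the 9 was 597 to 741 in KO liver and 2279 to 4563 in wt liver at 6 h. In untreated liver it was 530 to 537 in KO and 526 to 552 in wt. The sum of 5 measured bile duct markers was 429 to 876 in KO liver and 768 to 1041 in wt liver at 6 h. Untreated it was 338 to 375 in KO and 365 to 389 in wt liver. Sox9 was the brightest of them, at a log2 intensity of 9.37 and 7.83 in KO liver at 6 h, against 7.26 and 7.36 untreated. In KO liver only Sox9 and Epcam were above untreated in both 6 h arrays. Krt19 and Cldn7 were below it (Cldn7 at 4.77 and 4.92, against 5.14 and 4.94), and Krt7 overlapped it. In wt liver all 5 were above untreated. Krt19 was only just so, at 6.03 in wt 6 h replicate 2 against 6.02 in untreated wt replicate 2. Of 2 measured erythroid markers both were lower in KO at 6 h (4.93% of all genes were), with a sum of 265 to 269 in KO liver and 1097 to 1815 in wt liver. Array intensities have no true 0, so no marker could be called absent. The part of these cells in the KO against wt differences of Ugdh, Gstm1, Gstm3 and Ugt2b35 was not tested. Kupffer cell and macrophage markers summed to 5315 to 5746 in KO liver and 4607 to 5138 in wt liver at 6 h. In that comparison 1 of 10 was higher in KO, where 4.09% of all genes were higher. The sum of these Kupffer cell and macrophage markers was 6166 to 7089 in untreated KO liver and 6181 to 6467 in untreated wt liver. Not all moved with the sum. Cd68 was above untreated at 6 h, at a log2 intensity of 9.12 and 9.28 in KO and 9.68 and 9.48 in wt liver. Its untreated values were 8.57 and 8.42 in KO and 8.22 and 8.46 in wt liver. Marco was also above untreated in both genotypes. Markers of sinusoidal endothelium summed to 4823 to 5771 in KO liver at 6 h, against 6918 to 7326 in untreated KO liver, and to 5664 to 6457 in wt liver at 6 h, against 7025 to 7100 in untreated wt liver. Clec4g was the brightest of them. Lyve1 went against the sum, at 9.15 and 8.46 in KO liver at 6 h, against 7.51 and 8.13 untreated. In wt liver Lyve1 was at 10.17 and 10.47 at 6 h, against 8.18 and 8.24 untreated, and Pecam1 was also above untreated. Lymphocyte and NK cell markers, 5 of 9 measured, summed to 482 to 514 in wt liver at 2 h, against 358 to 383 in untreated wt liver. Only Cd3e was above untreated in both of these arrays, at a log2 intensity of 7.88 and 7.54, against 5.80 and 5.97. Nkg7 (7.08 and 7.21, against 7.23 and 7.44) and Gzma were below untreated, and Cd8a and Ms4a1 overlapped it.

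Around Ugdh and Ugp2, the other genes of the UDP-sugar route moved in both directions. At 6 h 3 of 12 rose and 6 fell in KO liver, and 2 rose and 7 fell in wt liver, which is 75% called in each, where 34.9% and 38.4% of all genes were called. Pgm2, a phosphoglucomutase-family enzyme, rose by 1.42 ± 0.19 in KO liver and by 2.03 ± 0.19 in wt liver (adjusted p = 0.000283 and 3.65e-05). Dcxr, the L-xylulose reductase further down the glucuronate pathway, fell by 1.33 ± 0.14 in KO liver and by 1.03 ± 0.14 in wt liver (adjusted p = 9.06e-05 and 0.000309). Gys2, the liver glycogen synthase that competes for UDP-glucose, fell by 0.71 ± 0.11 in KO liver and by 0.75 ± 0.11 in wt liver (adjusted p = 0.000876 and 0.000553). On the sulfate and PAPS route 1 of 10 rose and 3 fell in KO liver (40% called), and 2 rose and 4 fell in wt liver (60% called) at 6 h. Suox, the sulfite oxidase that supplies sulfate, fell by 1.38 ± 0.11 in KO liver and by 1.11 ± 0.11 in wt liver (adjusted p = 2.33e-05 and 5.96e-05). Slc35b2, a PAPS transporter of the Golgi, fell by 0.54 ± 0.15 in KO liver and by 0.82 ± 0.15 in wt liver (adjusted p = 0.0164 and 0.00155).

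Genes of glutathione synthesis, recycling, breakdown and use moved both ways. Of 19 genes 5 rose and 6 fell (31.6%) in KO liver, and 6 rose and 3 fell (15.8%) in wt liver at 6 h, where 19.1% and 22% of all genes fell. Gclc, the catalytic subunit of the enzyme that limits glutathione synthesis, rose by 0.95 ± 0.13 in KO liver and by 0.53 ± 0.13 in wt liver (adjusted p = 0.000317 and 0.00742), and Gsr, which recycles oxidised glutathione, by 0.79 ± 0.10 in KO liver and by 0.59 ± 0.10 in wt liver (adjusted p = 0.000242 and 0.00111). Chac2, which breaks glutathione down, fell by 1.49 ± 0.15 in KO liver and by 1.92 ± 0.15 in wt liver (adjusted p = 7.06e-05 and 1.59e-05). Chac1, which also breaks it down, stood above untreated instead. It had a log2 intensity of 10.20 and 7.58 at 6 h in KO liver, against 6.40 and 7.24 untreated. The wt arrays had 9.81 and 10.15, against 5.66 and 6.35 untreated. Of 14 markers of NRF2, CAR, PXR and AHR activity 6 rose and 6 fell at 6 h in each genotype (85.7% called, where 34.9% of all genes were called in KO and 38.4% in wt liver). The NRF2 target Srxn1 rose by 4.38 ± 0.21 in KO liver and by 4.42 ± 0.21 in wt liver (adjusted p = 2e-06 and 1.81e-06), and Txnrd1 by 2.19 ± 0.13 in KO liver and by 2.31 ± 0.13 in wt liver (adjusted p = 4.97e-06 and 3.72e-06). Of 21 regulators 4 rose and 7 fell in KO liver (52.4% called), and 4 rose and 10 fell in wt liver (66.7% called). The small Maf partner Mafk rose by 1.59 ± 0.26 in KO liver and by 2.80 ± 0.26 in wt liver (adjusted p = 0.00103 and 3.75e-05), and Nr1i2, the xenobiotic receptor PXR, fell by 0.87 ± 0.16 in KO liver and by 0.51 ± 0.16 in wt liver (adjusted p = 0.00226 and 0.0303).

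A further list held 14 enzymes outside these families, among them methyl-, acetyl- and amino acid transferases. It also held Acsm1, an acyl-CoA synthetase, and Ephx1 and Ephx2, epoxide hydrolases that are not conjugating enzymes. At 6 h 10 of the 14 fell (71.4%) and none rose in KO liver, where 19.1% of all genes fell. In wt liver 9 fell (64.3%) and none rose, where 22% of all genes fell. Hnmt, the histamine methyltransferase, fell by 2.39 ± 0.22 in KO liver and by 2.16 ± 0.22 in wt liver (adjusted p = 4.47e-05 and 6.56e-05). Baat, which joins bile acids to taurine or glycine, fell by 1.52 ± 0.13 in KO liver and by 1.60 ± 0.13 in wt liver (adjusted p = 3.23e-05 and 2.13e-05). A list of 10 membrane transporters held pumps that carry conjugates and others that do not mainly do so. At 6 h 1 rose and 5 fell in KO liver (60% called), where 34.9% of all genes were called. In wt liver 3 fell (30% called), where 38.4% of all genes were called. Abcc4, the basolateral pump MRP4, rose by 2.12 ± 0.17 in KO liver (adjusted p = 1.96e-05) and was 0.28 ± 0.17 above untreated in wt liver (adjusted p = 0.22), and the difference between these responses passed the test (1.84 ± 0.24, adjusted p = 0.0109). Abcb11, the bile salt export pump, fell by 1.41 ± 0.12 in KO liver and by 1.55 ± 0.12 in wt liver (adjusted p = 2.48e-05 and 1.36e-05). Cyp2e1, named outside the rule because it forms the reactive metabolite, differed from untreated by 0.04 ± 0.09 in KO liver and -0.11 ± 0.09 in wt liver at 6 h (adjusted p = 0.779 and 0.371).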

How the data were processed

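Per the labels, liver RNA was hybridised to 12 arrays. The authors processed them with Affymetrix Expression Console and RMA, per the submitters' processing notes, which name no version. By their values the deposited intensities are on a linear scale (array medians of 79.9 to 90.1), and their log2 was analysed with no pseudocount. The number of arrays limits the precision. Symbols came from the platform's probe set annotation, and all 45 equal RefSeq symbols (GRCm38.p6). A mean log2 of 5 or more was required of the 1-symbol probe sets, which then stood for 17052 genes, the brightest per gene being used. The model, in limma 3.58.1 (R 4.3.3), had 6 group means over all 12 arrays (6 residual and 4.33 prior degrees of freedom), p-values being two-sided and adjusted by Benjamini-Hochberg within each of 11 comparisons. Probe sets with several symbols were read from a like fit of 30567 probe sets. On simulated data for wt at 6 h the fit recovered 94% of 200 log2 changes of 1 among 17052 genes and called 15 unchanged ones. The simulated noise was normal with 1 spread per gene in all groups, and only those 200 genes changed. In the arrays the median standard deviation of the members ran from 0.077 in untreated wt to 0.177 in KO liver at 6 h. The simulated rate need not hold for the arrays.

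Groups came from sample titles and, for 1 array, its source name. Replicate numbers did not pair the arrays: their deviations from group means correlated at -0.134 to 0.185 over 15 pairs of groups, 4 of them above 0.1. Alternatives left out 1 array at a time, dropped the filter or raised it to 7, added 16 before the logarithm, applied quantile normalization, averaged all probe sets per gene, let the variance follow intensity, used only the groups compared, or blocked on replicate number. The members and all lists were chosen with earlier results of these data known. Members called were named when at most 20, otherwise the 10 largest rises and falls, and also the brightest of each class and members not called beside called ones; other lists gave up to 4 genes with the smallest p. Additional members were named so that all 45 are accounted for, and Chac1 was named because its direction differed from that of Chac2. Sequences are RefSeq's.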

Additional observations from a re-analysis of the deposited data

Results flagged for a closer look

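For 2 members every array moved one way in KO liver and the other way in wt liver, while the test of the difference itself did not pass. Ugt2b35 at 6 h stood 0.54 above untreated in KO liver and -0.34 from it in wt liver, with a gap between the responses, KO minus wt, of 0.87 ± 0.22 (limma adjusted p = 0.113). Gsto2, a dehydroascorbate reductase, stood -0.21 from untreated in KO liver and 0.33 above it in wt liver at 2 h, with a gap, KO minus wt, of -0.54 ± 0.18 (limma adjusted p = 0.232). Gsto2 lay at 5.49 to 6.09 in all 12 arrays, near the threshold of 5.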

How the results depend on the processing

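Of 119 called member results, none changed direction in 2365 values under the alternatives, and 183 of these values lost the call. Every alternative kept 18 of 23 calls in KO liver at 6 h, 12 of 21 in KO liver at 2 h, 22 of 31 in wt liver at 6 h, 6 of 13 in wt liver at 2 h and 20 of 26 between the times. None of the 4 calls of KO against wt at 6 h, nor the 1 over the 3 conditions, held in every alternative. At 6 h the count of 4 became 7 with a variance trend and 0 in a fit of the compared groups only. Over the 3 conditions the count of 1 became 0 with no filter, after quantile normalization and with the replicate block.

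With 1 array left out, members called ranged from 13 to 21 in KO liver at 2 h, 19 to 25 in KO liver at 6 h, 7 to 15 in wt liver at 2 h, 23 to 33 in wt liver at 6 h and 22 to 27 between the times. KO against wt they ranged from 0 to 2 at 2 h, 0 to 8 at 6 h and 0 to 2 over the 3 conditions, while unequal responses of KO and wt liver were called for 0 to 3 at 6 h. With the replicate number as a block, 22 members were called in KO liver at 2 h in place of 21, and the other counts were 23, 13, 31 and 26 in the groups and times above and 4 for KO against wt at 6 h, all as without it. The cause of these changes was not tested. A lone array left in a group was assumed to vary like the others. Dim genes such as Sult1e1 are limited by their signal over background.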
